A study of Mus musculus with 15 samples.

Results

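The genes described here are the secreted and membrane enzymes that cut extracellular matrix, the inhibitors that hold them back and the oxidases that crosslink collagen and elastin. They were taken by gene symbol from the authors' normalized table, as every numbered Mmp gene other than Mmp8, Timp1 to Timp4, every Adamts and Adamts-like gene, Lox and Loxl1 to Loxl4. This gave 51 genes of 21531 with a symbol on the array, namely 19 matrix metalloproteinases (MMPs), 4 tissue inhibitors of metalloproteinases (TIMPs), 18 ADAMTS proteases, 5 ADAMTS-like proteins and 5 lysyl oxidases. Of these, 46 were measured, meaning that Feature Extraction marked 1 or more probes as well above background on 3 or more of the 15 arrays. Mmp10, Mmp12, Mmp15, Mmp20 and Adamts6 did not reach that mark and were well above background on 1 or 2 arrays each.

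The study followed MYC-driven liver tumors in FVB/N mice through their formation and their early regression. All animals carried LAP-tTA, a doxycycline-silenced transactivator expressed from a liver promoter. All had doxycycline chow at 200 mg/kg until past 8 weeks of age, after which it was withdrawn. Control livers (n = 3) came from mice with LAP-tTA alone. The other groups also carried TRE-MYC, a MYC transgene that the transactivator switches on once doxycycline is gone. They were tumor-free liver 4 to 5 weeks off doxycycline (pre-tumor, n = 4), tumor nodules 8 to 9 weeks off it (tumor, n = 4), and tumor tissue from mice 8 to 9 weeks off it that then had doxycycline again for 72 hours (regression, n = 4). Time off doxycycline was not given for the control livers. The labels do not say that samples of a group came from separate animals, so p-values measure only the spread between these samples.

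MMPs are zinc-dependent proteases made as inactive proenzymes, and between them they cut collagens, gelatin, laminins and many cell surface proteins. TIMPs bind the active site of MMPs and, to different degrees, of ADAM and ADAMTS proteases. ADAMTS enzymes are secreted and carry thrombospondin repeats, and they trim procollagens and large proteoglycans, while the ADAMTS-like proteins share the repeats but have no protease domain. Lysyl oxidases turn lysines of collagen and elastin into aldehydes that form crosslinks. In liver, these genes are best known from stellate cells, myofibroblasts, macrophages and endothelium during scarring and its resolution.

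Total RNA was measured on 1-colour Agilent arrays, 1 array per sample, and levels are given as log2 signal after subtracting the array's 75th percentile. A level compares arrays for the same probe only, never one gene with another. Between 46.4% (tumor 3) and 90.8% (pre-tumor 4) of spots were well above background. Differences come from limma, with p-values adjusted by Benjamini and Hochberg's method across the 19362 genes with a value, and a gene rose or fell where the adjusted p was under 0.05. The probes named Myc disagreed. The 1 with a called change in tumor differed by 5.16 ± 0.54 between tumor and control and by -4.66 ± 0.5 between regression and tumor (limma, adjusted p = 7.77e-06 and 2.79e-05). The other 2 differed by -1.18 ± 0.45 and -1.1 ± 0.47 between tumor and control (limma adjusted p = 0.0892 and 0.132). Between regression and tumor they differed by 1.64 ± 0.41 and 0.67 ± 0.43 (limma adjusted p = 0.0126 and 0.387), against the direction of the first. The groups therefore rest on their labels here.

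In regressing tumors 9 of the 46 measured members were higher than in tumors and 0 were lower (19.6%), where 16.8% of all genes tested were called (8.34% higher and 8.45% lower). The 9 were Mmp2, Timp2, Timp3, Adamts1, Adamts2, Adamts9, Adamts12, Adamtsl2 and Loxl2, so they include a collagen-cutting protease, its inhibitors, procollagen and proteoglycan proteases and a crosslinker. Mmp2 and Lox passed the background filter only through the regression arrays, and without both genes 8 of 44 members were higher than in tumors (18.2%) and 0 lower. Counting both directions, these shares lie near that of all genes. The median difference over the 46 was 0.34 on the log2 scale, beside -0.13 over all genes. Against control liver, 7 members were higher in regression and 1 was lower (17.4%, or 15.9% of 44 without Mmp2 and Lox), where 8.35% of all genes were called (5.02% higher and 3.33% lower). With the filter on dim probes removed, and so over all 51 members, the same genes were called. The sizes depended on the background correction. With normexp and an added offset of 50, all 9 kept their call against tumor, but the difference shrank by more than 1.5 times for 8 of them. It became 0.79 for Mmp2, 1.05 for Timp3, 0.98 for Adamts1, 1.14 for Adamts2, 0.74 for Adamts9, 0.99 for Adamts12, 0.20 for Adamtsl2 and 0.50 for Loxl2, while Timp2 stayed at 2.18.

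**Figure D1:**
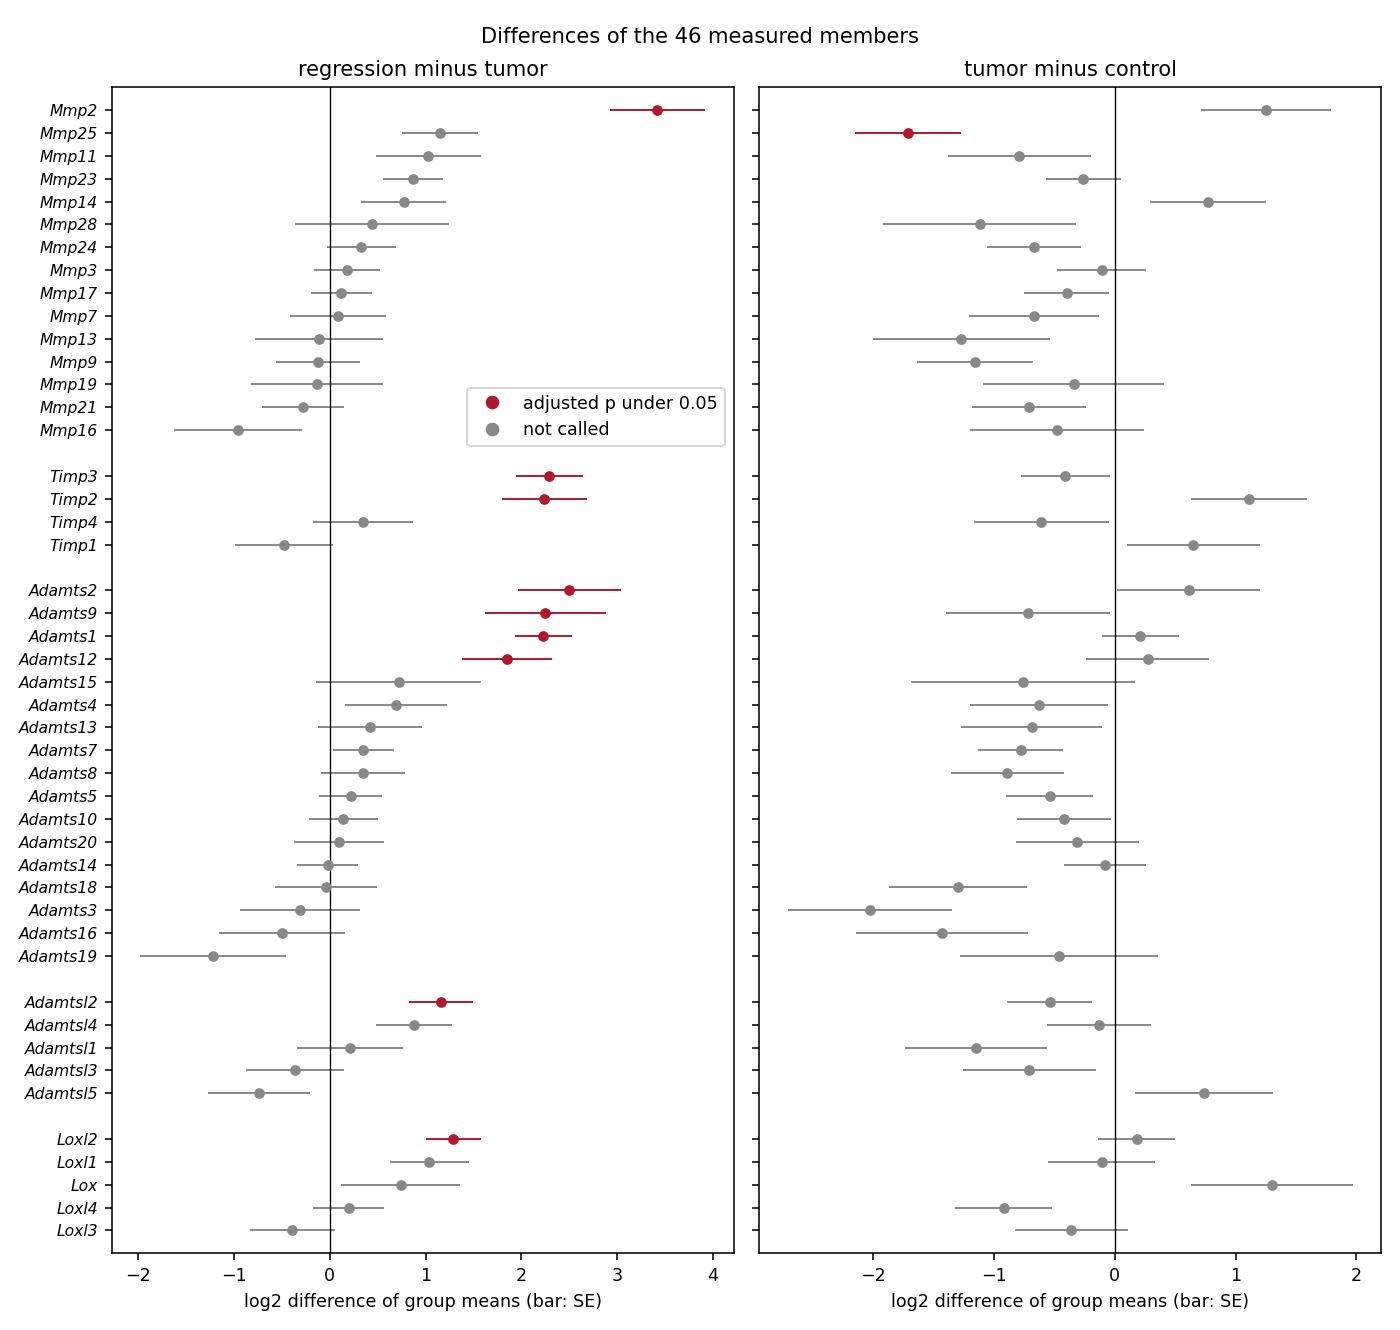
Log2 difference of group means (points) with the limma SE (bars) for the 46 measured members, ordered by family, for regression minus tumor (left) and tumor minus control (right). Red points passed an adjusted p of 0.05: 9 members to the right of 0 for regression minus tumor, and Mmp25 alone, to the left of 0, for tumor minus control.

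Among the 15 measured MMPs, Mmp2 (chr8:92827290-92853421, GRCm38) rose and no other was called between regression and tumor. Mmp2, or gelatinase A, cuts denatured collagen and type IV collagen. Its level was 1.47, -0.17, 0.20 and -1.27 on regression arrays 1 to 4, against -3.36, -3.39, -3.25 and -3.46 on the tumor arrays. It was -4.43, -4.77, -3.31 and -2.98 on the pre-tumor arrays and -4.63, -4.74 and -4.47 on the control arrays. All 4 regression arrays lay above every other array, and they also spread most among the 4 groups. Mmp2 was well above background on all 4 regression arrays but in tumor and pre-tumor on 1 of 4 each, and in control on 0 of 3. The fitted difference from tumor was 3.42 ± 0.50 (SE, limma adjusted p = 0.000276). Since 1 of 4 tumor arrays measured Mmp2, its size is uncertain, and normexp gave 0.79 (1.73-fold). Against control, where no array measured it, Mmp2 was at least 7.55-fold higher in regression on the scale used here (limma adjusted p = 6.5e-05). This takes each control array at the lowest signal well above its background. The bound does not carry over to other processing, since the fitted log2 difference ran from 0.88 to 5.11 over 27 alternatives.

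Mmp14, the membrane-bound MMP that activates proMMP2 together with TIMP2, had its highest values in the same tissue but was not called. Its level was 2.97, 2.34, 3.13 and 1.64 on the regression arrays, against 1.57, 1.58, 2.81 and 1.04 on the tumor arrays. Pre-tumor arrays gave 0.40, 0.97, 0.63 and 0.31, and control arrays 0.75, 0.35 and 1.83. Regression and tumor overlapped through tumor 3, and the difference was 0.77 ± 0.44 (adjusted p = 0.317). The difference from control was 1.54 ± 0.48 in regression (adjusted p = 0.0605), which 10 of 27 alternatives called (adjusted p = 0.00866 to 0.181 over all 27), and 0.77 ± 0.48 in tumor (adjusted p = 0.317).

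Mmp9, or gelatinase B, which is made by neutrophils and macrophages, showed no such difference. Its level was -2.10, -1.79, -2.43 and -1.14 on the regression arrays, against -2.42, -1.68, -1.96 and -0.91 on the tumor arrays. The regression and tumor ranges coincided, with a difference of -0.12 ± 0.44 (adjusted p = 0.928). Control arrays gave 0.02, -0.65 and -1.10 and the 3 pre-tumor arrays that kept the spot -0.20, -1.41 and -1.69. All regression arrays lay below all control arrays, but the difference of -1.29 ± 0.48 was not called (adjusted p = 0.113). The other MMPs with a value differed between regression and tumor by -0.96 (Mmp16) to 1.15 (Mmp25). Mmp16 was well above background on 0 of 4 regression and 1 of 4 tumor arrays, and its other probe differed by 0.76 ± 0.53.

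The genes of the collagenase and stromelysin cluster were near background on many arrays. Mmp13, Mmp12, Mmp3, Mmp10, Mmp20 and Mmp7 lie within 427 kb at chr9:7272514-7699585 (GRCm38). They were well above background on 7, 1, 7, 2, 1 and 9 of the 15 arrays, in that order. The 3 with enough arrays, Mmp13, Mmp3 and Mmp7, differed by -0.11 ± 0.67, 0.18 ± 0.34 and 0.09 ± 0.50 between regression and tumor, and none was called in any comparison. Their upstream sequences are shown because this set differs from the rest of the family in its promoter letters. A promoter from RefSeq (GRCm38.p6, 250 bases before to 50 after the start) was at hand for 32 of the 51 members. Motifs were sought on both strands, and a gene was counted if any of its annotated starts had a match. The AP-1 motif, spelled TGANTCA, was found in all 6 cluster genes, in 0 of the other 26 members and in 8.97% of the 27025 genes of the table. The TATA box, spelled TATAAA, was found in all 6 cluster genes, in 3 of the other 26 members and in 15.7% of all genes. The GC box, spelled GGGCGG, was found in 0 cluster genes, in 23 of the other 26 members and in 38.2% of all genes. The E-box bound by MYC, spelled CACGTG, was found in 1 of the 32 members and in 8.09% of all genes.

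The 110 bases just before each annotated start read as follows, 5′ to 3′ on the plus strand, with AP-1 motif and TATA box in capitals. The stretches are chr9:7272404-7272513 for Mmp13, chr9:7347264-7347373 for Mmp12, chr9:7445712-7445821 for Mmp3, chr9:7502232-7502341 for Mmp10, chr9:7628121-7628230 for Mmp20 and chr9:7691980-7692089 for Mmp7. For Mmp12 and Mmp7 they belong to 1 of 2 annotated starts, picked because its promoter holds the AP-1 motif. The promoter at the other start of each holds no AP-1 motif. The TATA box of Mmp12 falls after the start shown.
Mmp13: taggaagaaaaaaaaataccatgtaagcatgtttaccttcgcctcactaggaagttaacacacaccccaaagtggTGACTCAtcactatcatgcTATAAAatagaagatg
Mmp12: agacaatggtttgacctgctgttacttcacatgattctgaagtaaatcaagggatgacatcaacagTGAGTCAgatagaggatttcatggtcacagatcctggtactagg
Mmp3: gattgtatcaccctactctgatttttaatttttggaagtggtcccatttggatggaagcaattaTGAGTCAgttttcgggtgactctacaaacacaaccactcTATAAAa
Mmp10: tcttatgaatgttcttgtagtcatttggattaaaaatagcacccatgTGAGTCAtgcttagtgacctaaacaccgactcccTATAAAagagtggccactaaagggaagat
Mmp20: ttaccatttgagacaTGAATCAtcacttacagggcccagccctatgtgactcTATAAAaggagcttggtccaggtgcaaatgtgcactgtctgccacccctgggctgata
Mmp7: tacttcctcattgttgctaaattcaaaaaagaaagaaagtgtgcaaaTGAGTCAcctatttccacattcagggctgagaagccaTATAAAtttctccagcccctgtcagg
In these stretches the AP-1 motif began between -95 (Mmp20) and -35 (Mmp13) from the start. A match describes the letters only, and binding was not measured.

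Timp2 (chr11:118301061-118355411) and Timp3 (chr10:86300412-86349505) rose in regression, while Timp1 and Timp4 were not called in any comparison. TIMP2 inhibits MMPs broadly and also takes part in proMMP2 activation. Timp2 stood at 5.75, 4.59, 4.31 and 4.34 on the regression arrays, against 2.48, 2.25, 3.54 and 1.75 on the tumor arrays. Pre-tumor arrays gave 1.79, 1.89, 2.59 and 1.62, and control arrays 0.67, 1.58 and 1.93. Every regression array was above every other array. The difference was 2.24 ± 0.44 from tumor (4.73-fold, limma adjusted p = 0.00246) and 3.35 ± 0.48 from control (10.2-fold, adjusted p = 0.00033). Tumor and control overlapped and differed by 1.11 ± 0.48 (adjusted p = 0.137).

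TIMP3 stays bound to matrix and inhibits ADAM and ADAMTS proteases as well as MMPs. Timp3 gave 2.24, 1.26, 1.33 and 0.90 on the regression arrays, against -1.06, -1.39, -0.35 and -0.64 on the tumor arrays. It gave -0.20, -0.79, 0.06 and -0.09 on the pre-tumor arrays and -0.42, -0.63 and -0.30 on the control arrays. The regression arrays again did not overlap any other group. Differences were 2.29 ± 0.35 from tumor (4.91-fold, adjusted p = 0.000357) and 1.88 ± 0.37 from control (3.69-fold, adjusted p = 0.00423).

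Timp1, the inhibitor most often followed in liver scarring, had 0.68, 1.09, 2.12 and 2.63 on the regression arrays, against 2.47, 2.45, 1.92 and 1.59 on the tumor arrays. Pre-tumor arrays gave 1.76, 1.89, 0.48 and 1.10 and control arrays 0.27, 2.32 and 1.79. These ranges overlapped in each pair, and regression minus tumor was -0.48 ± 0.51 (adjusted p = 0.672). Timp4 had 0.05, 2.04, 1.27 and 2.02 on the regression arrays, against 0.99, 1.28, 0.56 and 1.17 on the tumor arrays. It had 2.47, 1.89, 0.56 and 1.32 on the pre-tumor arrays and 0.56, 2.47 and 1.82 on the control arrays. The tumor arrays lay within the regression range, with a difference of 0.35 ± 0.52 (adjusted p = 0.797).

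**Figure D2:**
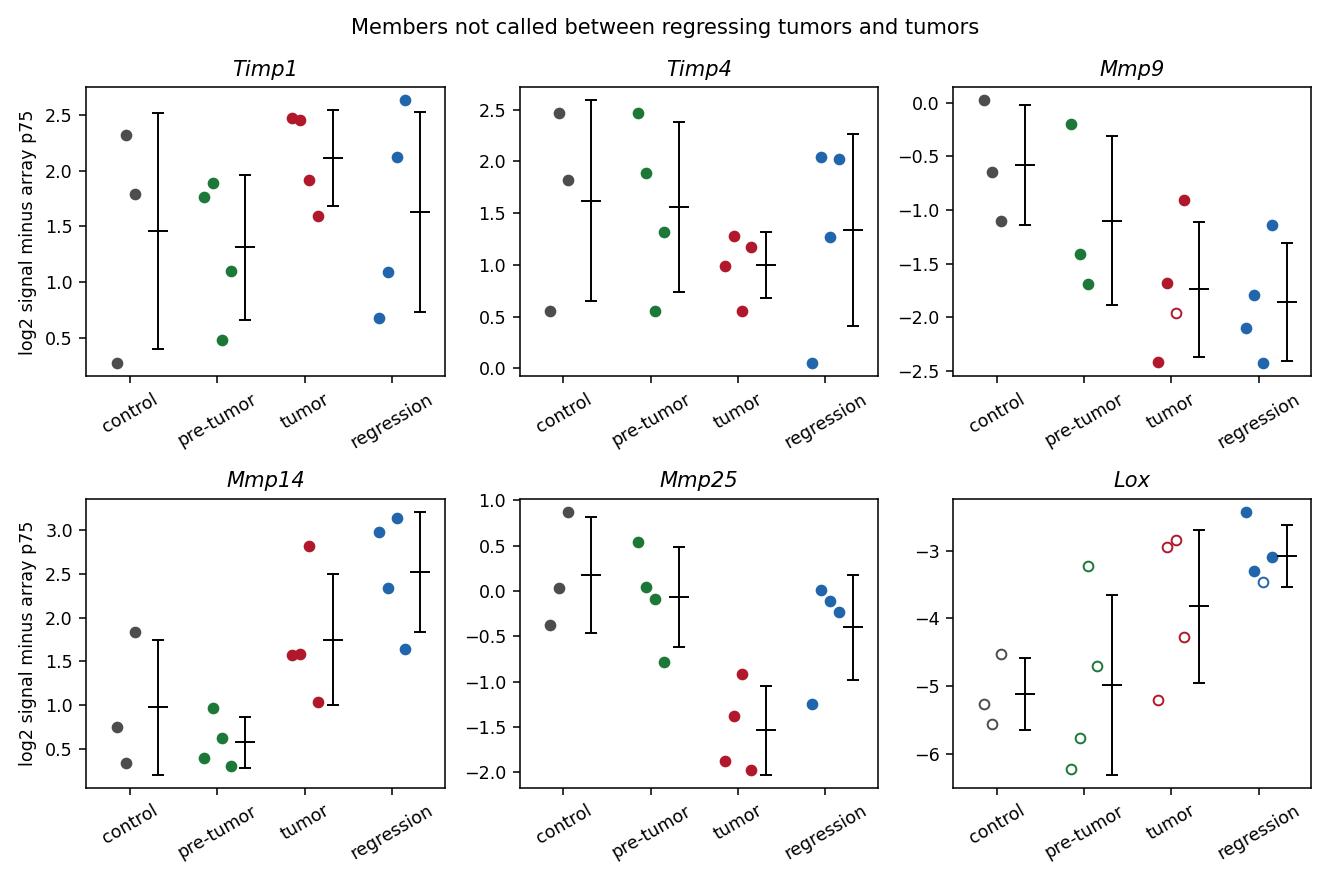
Level (log2 signal minus the array's 75th percentile) of 6 members not called between regression and tumor, 1 point per array, with each group's mean ± SD beside the points. Open points were not well above background. Timp1, Timp4 and Mmp9 overlap between regression and tumor, Mmp25 is lowest in tumor, and Lox is well above background on 3 regression arrays only.

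Of 17 measured ADAMTS proteases, Adamts1, Adamts2, Adamts9 and Adamts12 rose in regression against tumor and 0 fell. ADAMTS1 cuts versican and aggrecan. Adamts1 (chr16:85793827-85803113) read 1.62, 1.15, 1.57 and 0.59 on the regression arrays, against -1.00, -1.23, -0.97 and -0.78 on the tumor arrays. It read 0.54, 0.29, 0.27 and 0.33 on the pre-tumor arrays and -1.41, -0.79 and -1.42 on the control arrays. The 4 groups formed steps, with regression above pre-tumor on every array and pre-tumor above tumor and control on every array. Regression exceeded tumor by 2.23 ± 0.30 (4.69-fold, limma adjusted p = 0.000129) and control by 2.44 ± 0.32 (5.42-fold, adjusted p = 0.000179). Its other probe rose as well, by 1.46 ± 0.35 over tumor.

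ADAMTS2 removes the N-terminal propeptide of fibrillar procollagens. Adamts2 (chr11:50602085-50807573) read 2.37, 1.52, 1.87 and 0.45 on the regression arrays, against -1.38, -1.47, -0.08 and -0.86 on the tumor arrays. Pre-tumor arrays gave -1.21, -1.50, -0.39 and -0.19, and control arrays -0.19, -1.79 and -2.67. Regression 4 was the lowest of its group and still above all 11 arrays of the other groups. The difference was 2.50 ± 0.54 from tumor (5.65-fold, adjusted p = 0.00472) and 3.10 ± 0.59 from control (8.59-fold, adjusted p = 0.00292), and all 3 of its measured probes rose in both comparisons.

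ADAMTS12 cuts cartilage oligomeric matrix protein. Adamts12 (chr15:11064773-11349232) read 1.90, 1.83, 1.89 and 1.08 on the regression arrays, against 0.08, 0.58, -1.00 and -0.38 on the tumor arrays. Pre-tumor arrays gave -1.21, -0.70, -2.61 and -0.46, and control arrays -0.94, -0.50 and 0.10. Regression stood clear of the other groups, by 1.85 ± 0.47 from tumor (3.62-fold, adjusted p = 0.0117) and by 2.12 ± 0.51 from control (4.35-fold, adjusted p = 0.0149). Without control 1 the difference from control was 1.87 and no longer called (adjusted p = 0.0768).

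ADAMTS9 is a versican protease. Adamts9 (chr6:92772699-92944450) read 0.86, 0.56, -0.16 and 0.84 on the regression arrays, against -0.72, -0.62, -4.37 and -1.19 on the tumor arrays. Pre-tumor arrays gave 0.02, -0.73, -0.28 and -0.58, and control arrays -1.08, -0.63 and -1.31. Tumor 3, the dimmest array, was not well above background for this probe. The difference from tumor was 2.25 ± 0.63 (4.75-fold, adjusted p = 0.0216). The low value of tumor 3 enlarged it, so its size is uncertain, although the call held without tumor 3. Over 27 alternatives it ran from 0.65 to 2.62. The call against tumor was lost without regression 1, 2 or 4 (adjusted p = 0.0504 to 0.0571). The other 2 Adamts9 probes, well above background on 7 and 3 arrays, were not called (0.71 ± 0.54 and -1.00 ± 1.16). The difference from control was 1.53 ± 0.68 and not called (adjusted p = 0.179).

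Adamts3, whose product trims procollagens and is needed to process VEGF-C, was the 1 member lower in regression than in control. Its level was -2.64, -3.73, -4.06 and -3.10 on the regression arrays, against -0.24, -1.51 and -1.39 on the control arrays. It was -4.53, -3.37, -2.98 and -1.42 on the tumor arrays and -2.10, -2.89, -1.68 and -0.27 on the pre-tumor arrays. Regression and control did not overlap, but only 2 of 4 regression arrays were well above background. The difference of -2.33 ± 0.68 (adjusted p = 0.046) lost its call without any of the 3 control arrays, among other settings (adjusted p up to 0.188). Of the remaining ADAMTS proteases, Adamts19 had the lowest difference between regression and tumor (-1.22 ± 0.76) and Adamts15 the highest (0.72 ± 0.86), neither of them called. Both rest on dim spots. Adamts19 was well above background on 0 of 4 regression and 1 of 4 tumor arrays, and Adamts15 on 1 and 0.

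Adamtsl2, which encodes a matrix protein that binds latent TGF-beta binding protein and is mutated in human geleophysic dysplasia, was the 1 of 5 ADAMTS-like genes called. Adamtsl2 (chr2:27079336-27108981) read -1.00, -0.75, -1.27 and -1.00 on the regression arrays, against -1.70, -2.18, -2.85 and -1.93 on the tumor arrays. Pre-tumor arrays gave -1.20, -1.58, -1.57 and -1.54, and control arrays -2.22, -1.02 and -1.63. Tumor lay below regression and below pre-tumor on every array. The difference from tumor was 1.16 ± 0.33 (2.24-fold, adjusted p = 0.0219), and it was 0.93 without tumor 3 (adjusted p = 0.0613). Adamtsl4 was 0.88 ± 0.40 higher in regression without passing the test (adjusted p = 0.174).

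Loxl2 was the lysyl oxidase that rose. Its product crosslinks collagens, type IV collagen among them. Loxl2 (chr14:69608692-69695834) read 0.20, 0.98, 0.26 and 0.12 on the regression arrays, against -0.97, -1.36, -0.53 and -0.73 on the tumor arrays. Pre-tumor arrays gave -1.03, -0.73, -1.05 and -0.81, and control arrays -0.94, -0.95 and -1.35. The 3 groups without doxycycline return shared 1 range, and regression lay above it. The difference was 1.29 ± 0.29 from tumor (2.45-fold, adjusted p = 0.0062) and 1.47 ± 0.32 from control (2.77-fold, adjusted p = 0.00762). A second Loxl2 probe, well above background on all 15 arrays, did not show it, with 0.31 ± 0.37 from tumor and -0.24 ± 0.40 from control, and the mean of both probes was not called (adjusted p = 0.0615 and 0.209). The probes of this gene therefore disagreed.

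Lox was well above background on 3 of 4 regression arrays and on 0 of the other 11. Its level was -2.43, -3.30, -3.47 and -3.10 on the regression arrays, against -5.21, -2.94, -2.85 and -4.28 on the tumor arrays, where no value is above background. Pre-tumor arrays gave -6.22, -5.76, -3.23 and -4.70 and control arrays -5.26, -5.56 and -4.53. Lox was not called against tumor (adjusted p = 0.543) or control (adjusted p = 0.0735).

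Loxl1, which acts on elastin, was -0.11, -0.75, -0.64 and -1.44 on the regression arrays, against -2.00, -2.13, -1.52 and -1.45 on the tumor arrays. It was -1.09, -1.88, -3.00 and -1.61 on the pre-tumor arrays and -1.31, -2.09 and -1.60 on the control arrays. Regression and tumor did not overlap, although regression 4 and tumor 4 nearly met, and the difference of 1.04 ± 0.41 was not called (adjusted p = 0.1). Loxl3 was -1.82, -1.97, -2.17 and -1.21 on the regression arrays, against -1.70, -1.59, -1.80 and -0.51 on the tumor arrays. It was -0.80, -1.61, -2.04 and 0.02 on the pre-tumor arrays and -0.76, -0.98 and -1.38 on the control arrays. Regression and tumor overlapped, and the difference was -0.39 ± 0.44 (adjusted p = 0.689). Loxl4 was -1.16, -0.30, -0.20 and -0.04 on the regression arrays, against -0.54, -0.59, -1.06 and -0.29 on the tumor arrays. It was 0.33, -0.14, -0.60 and 0.14 on the pre-tumor arrays and -0.51, 0.68 and 0.72 on the control arrays. For Loxl4 too the ranges overlapped (0.20 ± 0.37, adjusted p = 0.845).

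**Figure D3:**
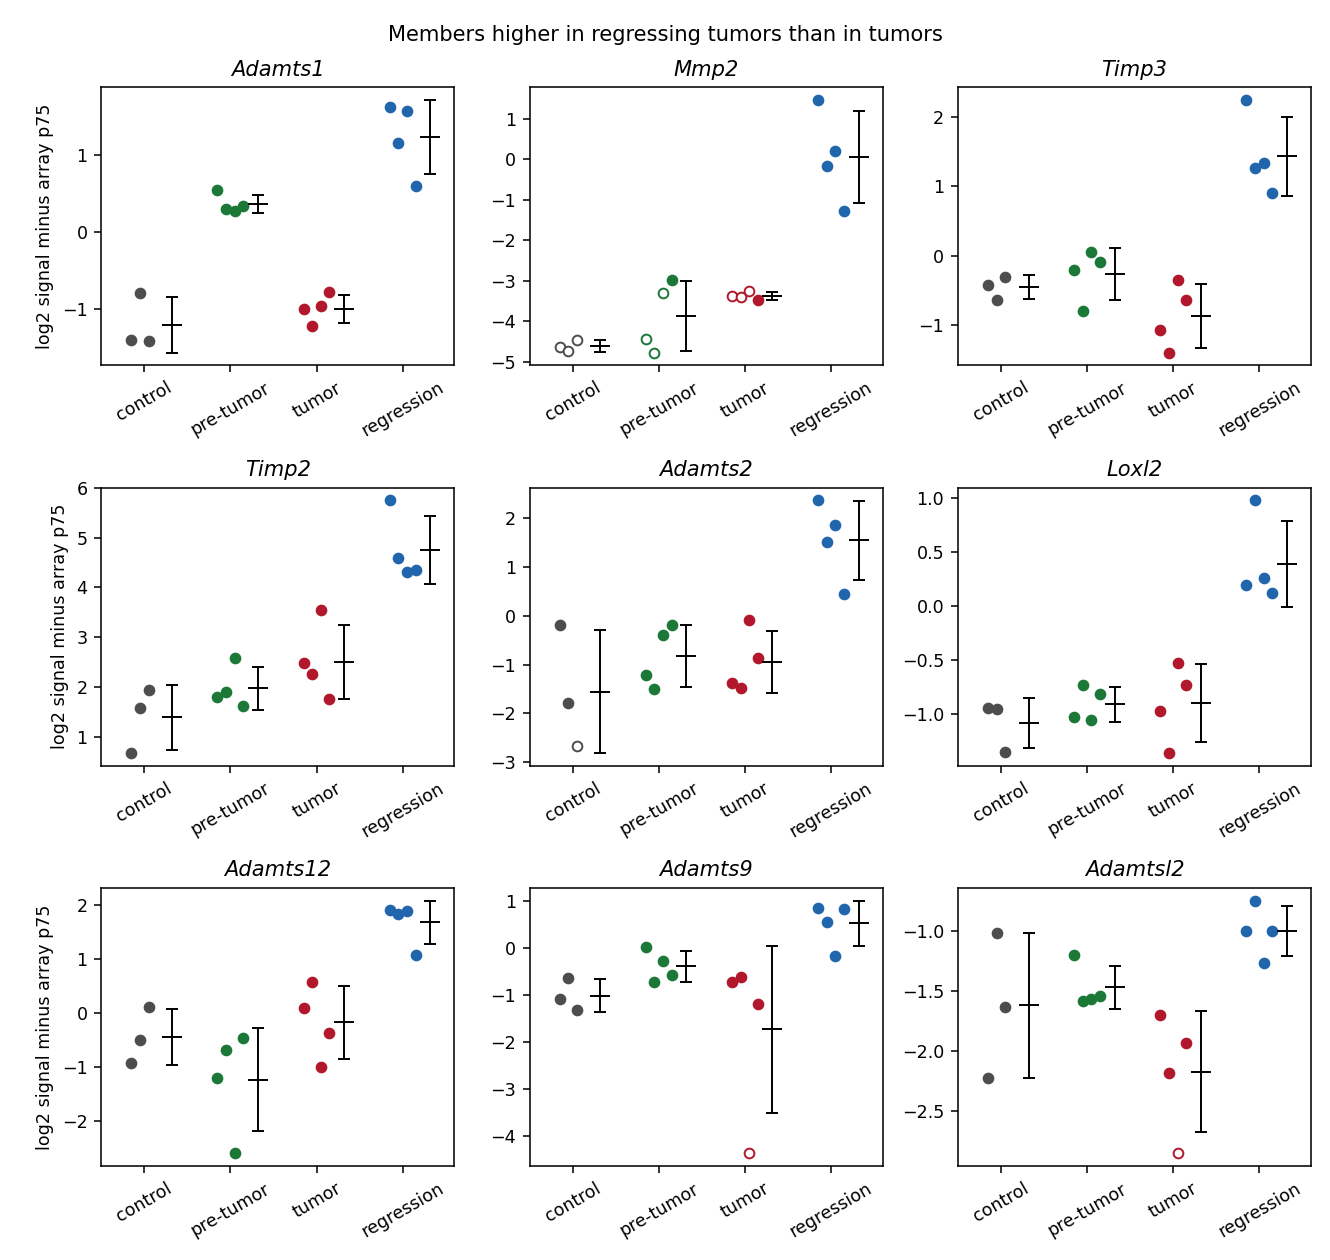
Level (log2 signal minus the array's 75th percentile) of the 9 members higher in regression than in tumor, 1 point per array, in order of adjusted p, with each group's mean ± SD beside the points. Open points were not well above background. The regression points lie above all tumor points in each panel, from a difference of 3.42 for Mmp2 to 1.16 for Adamtsl2.

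Of the 9 members that rose, 7 had a promoter in the RefSeq table, all except Mmp2 and Loxl2. Of these 7, 6 held the GC box, 2 the TATA box, 0 the AP-1 motif and 0 the E-box. Of the 19 other members outside the chromosome 9 cluster, 17 held the GC box, 1 the TATA box and 0 the AP-1 motif. The 110 bases before the start are shown for the inhibitors and for the proteases whose 2 or 3 measured probes all rose, at chr11:118355412-118355521 (minus strand) for Timp2, chr10:86300302-86300411 (plus strand) for Timp3, chr16:85803114-85803223 (minus strand) for Adamts1, chr11:50601975-50602084 (plus strand) for Adamts2 and chr15:11064663-11064772 (plus strand) for Adamts12. Capitals mark the GC box, in either orientation, and the TATA box, and each sequence runs 5′ to 3′ on the gene's strand.
Timp2: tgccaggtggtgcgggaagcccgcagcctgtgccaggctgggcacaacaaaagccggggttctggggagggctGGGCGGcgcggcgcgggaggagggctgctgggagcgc
Timp3: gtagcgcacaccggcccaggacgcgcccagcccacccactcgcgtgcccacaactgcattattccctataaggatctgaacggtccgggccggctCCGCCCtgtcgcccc
Adamts1: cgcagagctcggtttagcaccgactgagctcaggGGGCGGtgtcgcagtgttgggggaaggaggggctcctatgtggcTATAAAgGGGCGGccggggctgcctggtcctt
Adamts2: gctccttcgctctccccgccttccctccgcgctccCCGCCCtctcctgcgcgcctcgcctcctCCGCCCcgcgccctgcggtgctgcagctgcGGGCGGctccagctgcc
Adamts12: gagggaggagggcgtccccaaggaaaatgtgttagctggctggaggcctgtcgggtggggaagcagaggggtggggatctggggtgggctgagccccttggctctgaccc
Adamts12 was the 1 of the 7 without a GC box. No AP-1 motif or E-box stands in these windows, which says nothing of sites elsewhere.

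Regressing tumors differed among themselves. Regression 1 had the highest value for 7 of the 9 members and regression 4 the lowest for 6. Each slide held at most 1 array of a group. All 9 were higher in regression than in tumor on each of the 4 slides. That had to follow, because every regression array lay above every tumor array for each of the 9, so it is no separate check on the slides.

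**Figure D4:**
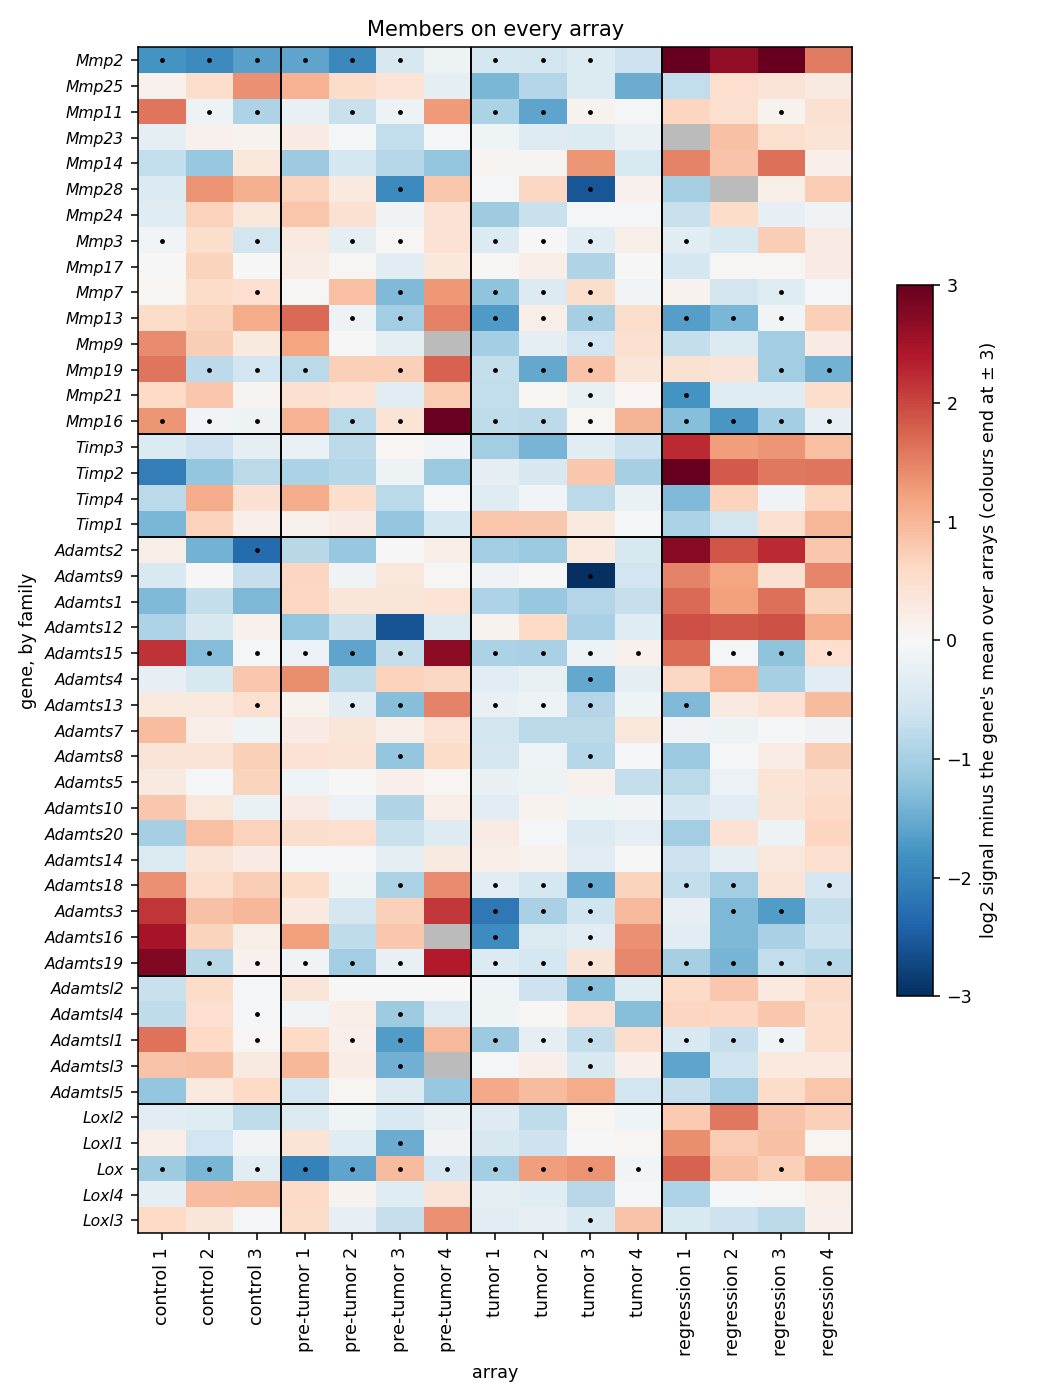
Level of the 46 measured members (rows, by family) on the 15 arrays (columns), as log2 signal minus the gene's mean over arrays. Red is above and blue below that mean, black dots mark spots not well above background, and grey cells are spots left out as outliers. The regression columns are red for Mmp2, Timp2, Timp3, Adamts1, Adamts2, Adamts9 and Adamts12, and regression 4 is paler than regression 1 for most of these.

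Tumors themselves showed few called differences in this family. Against control liver 1 of 46 members was lower in tumor and 0 were higher, where 16.3% of all genes were called (6.98% lower and 9.32% higher). Against pre-tumor liver 2 were lower and 0 higher, where 19.1% of all genes were called (9.08% lower and 10% higher). The median difference over the 46 was -0.51 from control and -0.42 from pre-tumor, beside -0.18 and -0.12 over all genes. The gene called in both was Mmp25 (chr17:23628315-23645269), a membrane-anchored MMP known from leukocytes. Mmp25 read -1.88, -1.38, -0.92 and -1.98 on the tumor arrays, against 0.54, 0.04, -0.09 and -0.79 on the pre-tumor arrays and -0.38, 0.03 and 0.87 on the control arrays. Tumor overlapped neither group, by -1.71 ± 0.44 from control (adjusted p = 0.0124) and -1.47 ± 0.40 from pre-tumor (adjusted p = 0.0167). Neither call held after centring arrays on the median (adjusted p = 0.0878 and 0.112). Without control 3 the first was not called (adjusted p = 0.0789), nor was the second without pre-tumor 1 or tumor 1 (adjusted p = 0.0641 and 0.057). In regression Mmp25 read -1.25, 0.01, -0.11 and -0.23, which overlapped tumor (1.15 ± 0.40, adjusted p = 0.0659).

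Adamts1 was the other member lower in tumor than in pre-tumor liver, by -1.35 ± 0.30 on the log2 scale (adjusted p = 0.00364), and its second probe was lower too (-1.11 ± 0.35). After median centring the call was lost (adjusted p = 0.0751). Tumor and control did not differ beyond their spread (0.21 ± 0.32, adjusted p = 0.724). Other probes of 2 members were called lower in tumor than in control while the brightest probe, used here, was not. These were an Adamts10 probe at -2.22 ± 0.68 beside -0.42 ± 0.39, and an Adamtsl5 probe at -1.48 ± 0.43 beside 0.74 ± 0.57.

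Pre-tumor liver gave 0 called members against control, and 0% of all genes were called. Over all 19362 genes the smallest limma adjusted p was 0.117 and 505 genes had an unadjusted p under 0.05. Other processing gave 11 genes (normexp), 3 (the authors' table) and 1 (trended robust variance), none of them members. The highest difference of a member was that of Adamts1, 1.56 ± 0.32, which was above all control arrays on all 4 pre-tumor arrays but was not called (adjusted p = 0.477).

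Because whole tissue was measured, fewer cells of a type and less RNA per cell cannot be told apart. Marker genes of several cell types moved together with the 9 members. Of 13 stellate cell and fibroblast markers 9 were higher in regression than in tumor and 0 lower. The 9 were Col1a1, Col1a2, Col3a1, Dcn, Lum, Pdgfra, Pdgfrb, Reln and Thy1, and the rest of the list was not called. Col1a1, Col1a2 and Col3a1 are also counted in the collagen list below. The summed level of the 13 was 145 to 459 in regression, against 96.6 to 205 in tumor. That level was 459, 332, 324 and 145 on regression 1 to 4, so it was lowest on the array where 6 of the 9 members were lowest. This was not particular to stellate cells. The endothelial sum (23.8, 21, 20.2 and 14.1) and the macrophage and Kupffer cell sum (516, 288, 364 and 275) were also highest on regression 1 and lowest on regression 4. The T and NK cell, neutrophil, hepatocyte and bile duct sums were lowest on other regression arrays. Endothelial markers were higher for 10 of 12 (14.1 to 23.8 in regression, against 5.03 to 6.34 in tumor). Macrophage and Kupffer cell markers were higher for 9 of 12 (275 to 516, against 70.5 to 111). Clec4f and Marco were not among these 9, and Marco was lower in regression than in control. T and NK cell markers were higher for 6 of 9 (5.96 to 13.5, against 1.81 to 2.41). Hepatocyte markers were higher for 6 of 11 (557 to 2170, against 231 to 706), bile duct markers for 1 of 7 (6.35 to 12.1, against 5.4 to 9.41), and neutrophil markers for 0 of 9 (4.85 to 6.81, against 1.41 to 4.25). Lum, Spp1, Gzma and S100a8 were well above background on 0 tumor arrays. Of all genes, 8.34% were higher and 8.45% lower in regression than in tumor. What part the marker shifts have in the change of the 9 members was not tested.

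In tumor against control, where Mmp25 was lower, 9 of 11 hepatocyte markers were lower and 0 higher (231 to 706 in tumor, against 1550 to 2130 in control). Neutrophil markers were called for 0 of 9 (1.41 to 4.25, against 5.4 to 14.6). Stellate cell markers were higher for 4 of 13 (Col1a1, Col1a2, Col3a1 and Pdgfrb) and lower for 1 (Reln), and endothelial markers were lower for 3 of 12. Macrophage and Kupffer cell markers were higher for 5 of 12 (Cd68, Cd5l, C1qa, C1qc and Lyz2) and lower for 2 (Clec4f and Marco). In tumor against pre-tumor liver, where Mmp25 and Adamts1 were lower, neutrophil markers were lower for 3 of 9 (S100a8, S100a9 and Retnlg; 1.41 to 4.25 in tumor, against 2.7 to 19.6 in pre-tumor) and higher for 0. Endothelial markers were lower for 7 of 12 (5.03 to 6.34, against 13.8 to 24.6) and hepatocyte markers for 9 of 11. Macrophage and Kupffer cell markers were higher for 6 of 12 (Cd68, Cd5l, C1qa, C1qb, C1qc and Lyz2) and lower for 2 (Clec4f and Marco). Stellate cell markers were higher for 3 of 13 and lower for 3. The 3 higher were the collagens Col1a1, Col1a2 and Col3a1, which are also in the collagen list below, and the 3 lower were Dcn, Lum and Reln. Of all genes, 9.32% were higher and 6.98% lower in tumor than in control, and 10% were higher and 9.08% lower than in pre-tumor liver. The part of these marker shifts in the Mmp25 and Adamts1 differences was not tested.

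**Figure D5:**
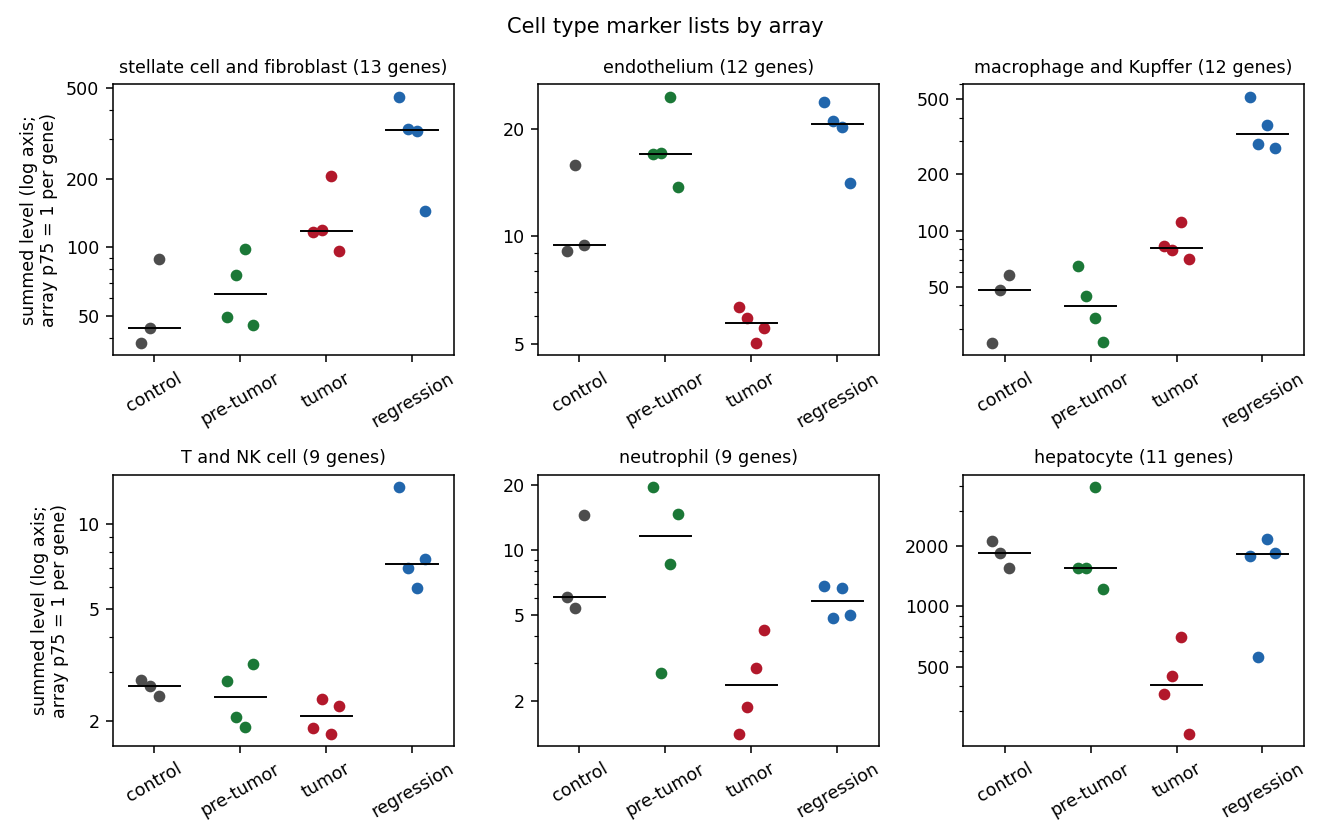
Summed linear level of 6 cell type marker lists on each array (points, log axis, where an array's 75th percentile counts as 1 for each gene) and the group median (line). Endothelial, macrophage, T and NK cell and neutrophil sums are higher on all 4 regression arrays than on all 4 tumor arrays, although 0 of 9 neutrophil markers were called. The stellate cell sum overlaps between regression 4 (145) and tumor 3 (205), and the hepatocyte sum between regression 2 (557) and tumor 3 (706).

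Among related genes, 5 lists had 42.9% to 72.7% of their measured genes higher in regression than in tumor, ADAM and astacin proteases 25%, and the plasminogen system and the AP-1 and ETS factors 9.09% each, where 8.34% of all genes were higher. Collagens I, III, IV, V and VI, which are substrates of these enzymes, were higher in regression than in tumor for 7 of 10 and lower for 0, with Col3a1 at 2.60 ± 0.43, Col1a2 at 2.06 ± 0.46 and Col5a2 at 1.87 ± 0.40. They were already higher in tumor than in pre-tumor liver for 6 of 10 and than in control for 4 of 10, among them Col3a1 (3.11 ± 0.46) and Col1a2 (3.17 ± 0.50). Mmp2, Timp2, Adamts2 and Loxl2 were not called there, which does not show that they were unchanged. Their differences from control were 1.25 ± 0.54, 1.11 ± 0.48, 0.61 ± 0.59 and 0.18 ± 0.32, in that order. From pre-tumor liver they were 0.51, 0.53, -0.12 and 0.01. Mmp2 in tumor did not overlap control, and was called with only the compared groups fitted (limma adjusted p = 0.0286). Cathepsins and cystatins, the lysosomal proteases and their inhibitors, were higher for 8 of 11 in regression, with Ctsh at 2.32 ± 0.36, Ctsc at 2.17 ± 0.35 and Cst3 at 1.67 ± 0.35.

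Regulators of metalloproteinases were higher in regression than in tumor for 7 of 14 and lower for 0. A2m, the protease-trapping plasma inhibitor, was higher by 5.63 ± 0.41 (49.4-fold, limma adjusted p = 1.9e-06), and Cd44, a hyaluronan receptor, by 2.34 ± 0.49. Thbs2, a matricellular protein, was at least 5.01-fold higher in regression, with no tumor array well above background (adjusted p = 0.000107). Lrp1, the receptor that clears protease complexes, was higher by 1.84 ± 0.39.

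Genes of collagen hydroxylation and other crosslinking were higher for 8 of 17, with Fn1 (fibronectin) at 2.43 ± 0.53 and Tgm2 (transglutaminase) at 1.87 ± 0.43. ADAM and astacin proteases were higher for 3 of 12, namely Adam8, Adam12 and Bmp1, the last of which cuts the C-terminal propeptide of procollagens. In the plasminogen system 1 of 11 was higher, Plg itself, a hepatocyte product (2.88 ± 0.41), and the activators Plau and Plat were not called. Of AP-1 and ETS factors 1 of 11 was higher, Ets1 (2.05 ± 0.33). TGF-beta ligands and readouts were higher for 3 of 7, Ccn2 (2.22 ± 0.38), Inhba and Ltbp2. None of these lists had a member called lower in regression than in tumor, where 8.34% of all genes were higher and 8.45% lower.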

How the data were processed

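Per the labels' protocols, total RNA was extracted, amplified and labelled with Cy3, and each of the 15 samples was hybridised to 1 array of the Agilent mouse 4x44K design. Per the file headers, Agilent Feature Extraction 10.5.1.1 quantified the scans, and the deposited processed signal is a background-subtracted intensity on a linear scale. The authors' deposited normalized table holds log2 intensity, and its normalization method is not given in the sources used here. It gave the gene symbols and served as an alternative.

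From the log2 of the processed signal, the 75th percentile of the same array was taken away. Spots marked as outliers were left out (0.452% of gene values, and 5 values of measured members: Mmp9, Adamts16 and Adamtsl3 on pre-tumor 4, Mmp23 on regression 1 and Mmp28 on regression 2), so those fits have 1 array fewer. Probes well above background on at least 3 of 15 arrays were kept, and each gene is represented by its passing probe with the highest mean. Mmp2 and Lox passed only through the regression arrays. limma 3.58.1 in R 4.3.3 was fitted over 19362 genes in 1 model of the 4 groups, two-sided, with Benjamini-Hochberg adjustment, and was tested on simulated data. The number of arrays limits the precision. A fold against a group with no array well above background is a bound. It takes each dim array at its own detection limit, the smallest signal of any probe well above background there. Such a bound holds only for the background-subtracted signal used here. Summed marker levels are sums of linear levels.

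Members and lists were chosen with earlier results of these data known. Members called in any comparison are given in full, as are the TIMPs, the lysyl oxidases, Mmp2, Mmp9 and Mmp14, and related genes are named by smallest adjusted p. Alternatives were normexp with quantile normalization (on the median signals, since mean signals were not among the columns used), quantile normalization, median centring, the authors' table, other filters, blocks, fits and probe rules, and leaving out arrays. Same-numbered samples deviated with correlations of -0.443 to 0.607, so the numbers were not taken to pair samples. Promoters came from RefSeq (GRCm38.p6).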

Additional observations from a re-analysis of the deposited data

Results flagged for a closer look

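In 5 of 56 groups of 4 arrays among the members given in full, 1 array lay far from the other 3 by Dixon's criterion, which chance gives in about 1 of 20 groups. Loxl2 was 0.98 on regression 2, beside 0.12 to 0.26 on the other regression arrays. Adamts12 was 1.08 on regression 4, beside 1.83 to 1.90. Adamts9 was -4.37 on tumor 3, beside -1.19 to -0.62 on the other tumor arrays, and that spot was not well above background. Loxl3 was -0.51 on tumor 4, beside -1.80 to -1.59. Adamtsl2 was -1.20 on pre-tumor 1, beside -1.58 to -1.54.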

How the results depend on the processing

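Over 27 alternatives, the 20 called member differences gave 540 values, of which 505 kept direction and call, 35 kept direction without the call and 0 reversed. For 11 results nothing changed the call: Mmp2, Timp2, Timp3, Adamts1 and Adamts2 in regression against tumor and control, and Adamts12 against tumor. Some alternatives leave out an array of a group outside the comparison. These cannot move the difference, only the shared estimate of the spread, so they are weak checks. Adamts3 lost its call under 15 alternatives, Adamtsl2 under 6 and Adamts9 under 5. Among them, leaving out tumor 3 and pre-tumor 4, the dimmest and brightest arrays, was chosen after seeing the data. It left Adamtsl2 at 0.93 (adjusted p = 0.0677). The count in tumor against control (1) was 0 under median centring, 2 under the stricter filter and 2 with only the compared groups fitted. Of all genes, 14.7%, 22.6% and 12.5% were called there. The count in tumor against pre-tumor (2) was 0 under median centring, where 16.2% of all genes were called. Median centring moved the median of all genes to 0.14 in both comparisons, from -0.18 and -0.12. Fitting the replicate block gave 5 members in tumor against control and 16 in regression against control (8 without it). The share of all genes called rose with it, to 23.3% from 16.3% and to 18.3% from 8.35%. Leaving out 1 array at a time gave 0 to 3 members in tumor against control (0 without control 3, 3 without tumor 4), 1 to 6 in tumor against pre-tumor (1 without pre-tumor 1 or tumor 1, 6 without tumor 4), 7 to 11 in regression against tumor and 6 to 9 in regression against control. With 1 array left out, the share of all genes called was 11.8% to 18%, 14.9% to 20.4%, 12.5% to 18.2% and 5.3% to 9.45%, in the same order. The causes were not tested. Signal over background limits Mmp2 and Lox outside regression, Adamts3 in tumor and regression, and the chromosome 9 cluster on many arrays. It also limits Adamts15, Adamts19 and Mmp16, each well above background on 3 of 15 arrays.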
